A study of Mus musculus with 22 samples.

Results

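The genes described here build the ribosome or belong to the RNA exosome. They were chosen by a rule on gene names that uses no measured value, although earlier results of these data were known at that time. They are the 59 of 22592 gene symbols in the deposited tables that begin with Nop, Utp, Nol or Rrp and a digit, that name the RNA polymerase I subunits Polr1a to Polr1e or a numbered exosome component (Exosc), or that are Imp3, Imp4, Fbl, Dkc1, Ncl, Npm1, Nhp2, Gar1, Bop1, Pes1 or Wdr12. By known role they comprise 5 RNA polymerase I subunits, 3 proteins of the box C/D snoRNPs (small nucleolar RNA-protein particles), 4 proteins of the box H/ACA snoRNPs, 19 factors of the small-subunit processome or of 40S maturation, 11 factors of 60S assembly, the 2 abundant nucleolar proteins Ncl and Npm1, the 2 further nucleolar proteins Rrp8 and Nol7, and 10 subunits of the RNA exosome. The remaining 3, Nol3, Nol4 and Utp14b, share the naming pattern but act outside ribosome synthesis or have no settled role in it.

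Ribosomes are assembled in the nucleolus. RNA polymerase I makes one long precursor, the snoRNPs modify it, the small-subunit processome and the 60S assembly factors fold and cut it, and the exosome trims 3′ ends of rRNA and degrades nuclear RNA. Growing mouse oocytes have an active nucleolus, full-grown oocytes largely stop rRNA synthesis, and the embryo resumes it only after the first cleavage.

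RNA-seq libraries were made by Smart-seq2, which starts from poly(A) tails, so the amount of an RNA and the length of its tail cannot be told apart. Stages of the Setd2 knockout from growing oocyte to 8-cell embryo were compared, with 2 knockout (KO) and 2 control (Con) libraries each. Setd2 encodes the methyltransferase that places the trimethyl mark of transcribed genes, H3K36me3. Oocytes still growing, from postnatal day 7 (P7), are labelled Setd2-/- (KO) and Setd2+/- (Con). Full-grown oocytes, zygotes taken 30 h after hCG and embryos of the 48h time point are labelled Setd2_KO and Setd2_Con, and the study design calls the knockout maternal. At 48h the KO embryos are labelled 1-cell and the Con embryos 2-cell, so that genotype and cell stage cannot be told apart there. Spindle-transfer 8-cell embryos, made by moving the spindle and chromosomes between mutant and control oocytes and then injecting sperm, are labelled Setd2-/- (KO) and Setd2+/- (Con). Their labels do not say whether the genotype is that of the spindle or of the recipient cytoplasm. One library of Dnmt3l_KO full-grown oocytes and 1 of Dnmt3l_Con complete the series, each in a column named as merged. Adult females were 8 weeks old and were injected with PMSG and hCG. The Cre driver, the number of pooled cells and whether replicates came from separate animals are not given in the sources used here, so the spread behind each p-value may be technical.

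Setd2 itself was lower in the KO at 3 stages. It stood at 0.968 and 0.927 FPKM in KO full-grown oocytes, against 4.75 and 4.35 in Con, at 1.30 and 1.73 in KO zygotes, against 12.1 and 8.85 in Con, and at 1.42 and 1.74 in KO embryos at 48h, against 53.2 and 43.0 in Con. The labels are less separated elsewhere, with 3.67 and 3.21 FPKM in KO P7 oocytes, against 4.33 and 6.68 in Con, and with 15.4 and 18.1 in KO spindle-transfer embryos, against 18.2 and 17.1 in Con, which overlap. Dnmt3l stood at 25.0 FPKM in the library labelled Dnmt3l_KO and 31.7 in Dnmt3l_Con. An estimate from the smallest FPKM steps put the libraries at 3065000 to 22565000 fragments, with the zygotes (3065000 to 3393000) the shallowest group, so that values under 1 FPKM rest on few fragments. All 12 oocyte markers checked reached 1 FPKM in every oocyte and zygote library, and 10 of the 12 granulosa markers were at 0 in both KO P7 libraries.

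FPKM (fragments scaled to transcript length and to the mapped total) is a share of each library. Cell number and RNA per cell cannot be read from it, and a share also shifts when other RNAs of the library change. Changes below are differences of log2(FPKM + 1), which understates the change of low genes, given relative to the median change of all genes tested in the same comparison. Median member changes are not made relative, so they are to be read against the median of all genes. A gene is called, and said to rise or fall, at a limma p under 0.05 after Benjamini-Hochberg adjustment over all genes tested. With 2 libraries against 2 no exact permutation test of a single gene can go below 0.333, so calls rely on the spread shared between genes.

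The members as a group followed the control embryo into the 2-cell stage, and KO embryos at 48h did not show that increase. The 59 genes made up 0.408% and 0.458% of the summed FPKM in KO embryos at 48h, against 1.85% and 1.88% in Con. In zygotes they made up 0.365% and 0.459% in KO and 0.353% and 0.334% in Con. In full-grown oocytes the shares were 0.395% and 0.399% in KO and 0.439% and 0.449% in Con. The other tables were normalised separately and are set beside these without a test: P7 oocytes held 0.683% and 0.678% in KO and 0.665% and 0.676% in Con, and 8-cell embryos held 1.42% and 1.28% in KO and 1.46% and 1.42% in Con. Thus the 2 Con libraries at 48h stood above every other library. Of the 59 members, 57 could be tested in P7 oocytes, 58 in the table of full-grown oocytes, zygotes and 48h embryos, and 57 in 8-cell embryos. A gene needed 1 FPKM in 2 libraries of a table. Nol3, an inhibitor of cell death, stayed under 1 FPKM in every library and was never tested, and Nol4 was tested only in the table of 12 libraries.

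**Figure D1:**
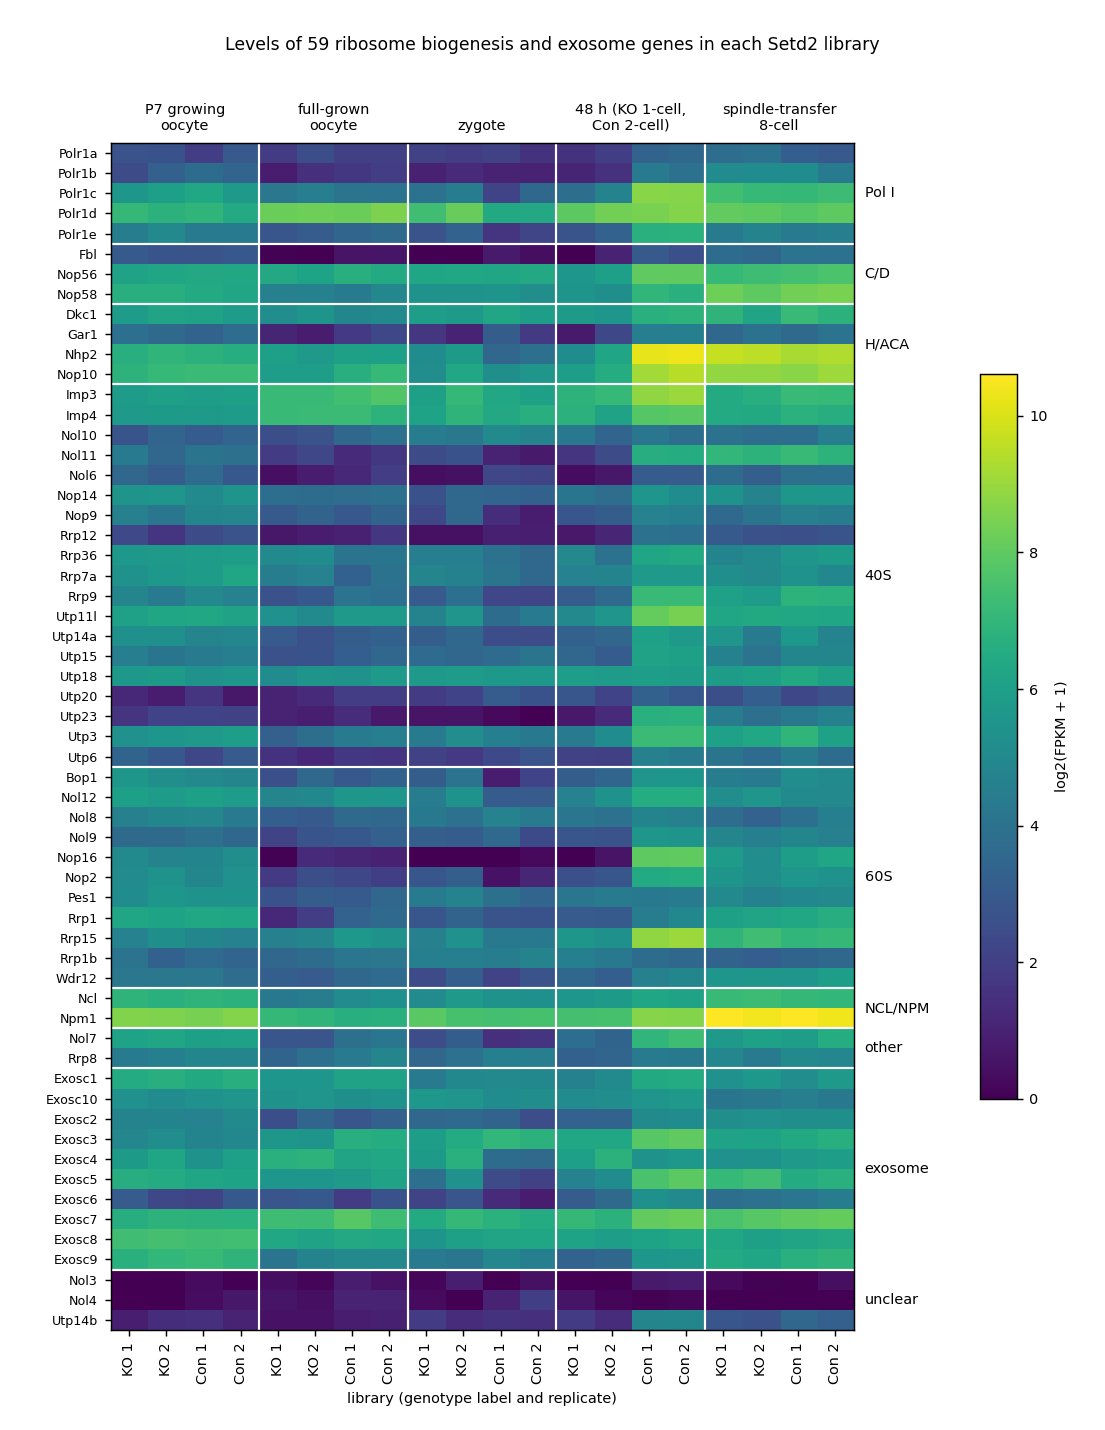
Each row is 1 of the 59 members, grouped by role, each column 1 Setd2 library (KO left of Con within a stage), and colour gives log2(FPKM + 1). The 2 Con libraries at 48h are the brightest columns of their table for most Pol I, H/ACA and 40S rows, while the 2 KO libraries at 48h resemble the zygote columns.

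At 48h, 48 of 58 members were lower in KO 1-cell than in Con 2-cell embryos and 2 were higher. Over all 12199 genes tested, 30.6% were called lower, 43.2% higher and 73.8% were called either way. The median member changed by -1.84, against 0.43 for the median of all genes. By role, 4 of 5 Pol I subunits, 3 of 3 box C/D proteins, 4 of 4 box H/ACA proteins, 16 of 19 small-subunit factors, 9 of 11 large-subunit factors, 1 of 2 abundant nucleolar proteins, Rrp8 and Nol7, 8 of 10 exosome subunits and Utp14b were called lower. The 8 without a call were Polr1d, Utp18, Utp20, Nol10, Pes1, Ncl, Exosc8 and Nol4. Of the 50 calls, 46 held under every alternative setting, and Exosc4, Rrp1b, Exosc10 and Nol8 did not. The 6 markers of 2-cell embryos checked summed to 5.60 and 30.9 FPKM in the KO libraries and to 127 and 159 in Con. All 6 were at 1 FPKM or more in both Con libraries and 2 of 6 in both KO libraries. Zscan4c, Zfp352, Tdpoz1 and Tdpoz4 were lower in both KO libraries than in both Con libraries. Zscan4d overlapped, at 3.88 and 16.7 FPKM in KO and 16.6 and 13.2 in Con. Tdpoz3 overlapped too, at 0 and 1.48 in KO and 3.09 and 1.32 in Con.

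In zygotes the balance was the other way, with 19 of 58 members higher in KO and 5 lower. Of all genes, 18.5% were called higher, 13.1% lower and 31.6% either way, so the share of members called higher (32.8%) was above that background and the share called lower (8.62%) below it. The median member changed by 0.22, against 0.014 for all genes. The called-higher members included 3 of 5 Pol I subunits, 1 of 4 H/ACA proteins, 6 of 19 small-subunit factors, 5 of 11 large-subunit factors and 3 of 10 exosome subunits. All 24 calls were lost when the zygote libraries were fitted without the oocytes and 48h embryos, and leaving out KO replicate 2 left 14 calls (9 higher, 5 lower) and leaving out Con replicate 1 left 15 (13 and 2). The 12 oocyte markers summed to 19993 and 21827 FPKM in KO zygotes and to 9899 and 10038 in Con zygotes. Much of that sum was H1foo, at 9363 and 7515 in KO and 2714 and 2306 in Con. Both KO libraries also lay above both Con libraries for Zp1, Zp2, Zp3, Gdf9, Nlrp5, Figla, Nobox and Mos. Bmp15 went the other way, at 1036 and 998 in KO and 1294 and 1711 in Con, and Dppa3 and Ooep overlapped between the genotypes. The 12 granulosa markers summed to 32.1 and 33.6 in KO and to 18.7 and 25.7 in Con. Among them Cyp19a1 was the largest part and overlapped, at 20.1 and 15.1 in KO and 13.1 and 19.7 in Con. Nr5a2 stood at 7.24 and 9.76 in KO and 4.36 and 3.13 in Con, but also at 33.9 and 36.8 in Con embryos at 48h. Has2 was lower in KO, at 0.132 and 0.0697 against 0.325 and 0.863. Amh, Inha and Fst were at 0 in all 4 libraries, and Fshr stood at 3.08 and 4.18 in KO and 0 in both Con libraries. The part of these markers in the result was not tested.

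In full-grown oocytes no member was called higher and 5 of 58 were called lower, where 4.89% of all genes were called lower, 2.02% higher and 6.92% either way. The median member changed by -0.38, against -0.19 for all genes. These 5 calls were not stable. Rescaling libraries by median ratios gave 2 higher and 1 lower, quantile normalisation gave 1 higher and 2 lower, and leaving out any 1 of the 4 oocyte libraries left 0 calls, or 1 without KO replicate 2. The 12 granulosa markers summed to 37.0 and 41.7 FPKM in KO and to 36.5 and 39.6 in Con, but single markers moved both ways. Inha stood at 0.816 and 0.519 in KO, against 14.8 and 15.1 in Con, and Cyp11a1 at 0.293 and 0.323, against 3.20 and 2.37. Fshr stood at 9.49 and 8.25 in KO, against 0.415 and 0.180 in Con, and Cyp19a1 at 23.4 and 19.6, against 15.4 and 13.6. Their part in the member values was not tested.

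**Figure D2:**
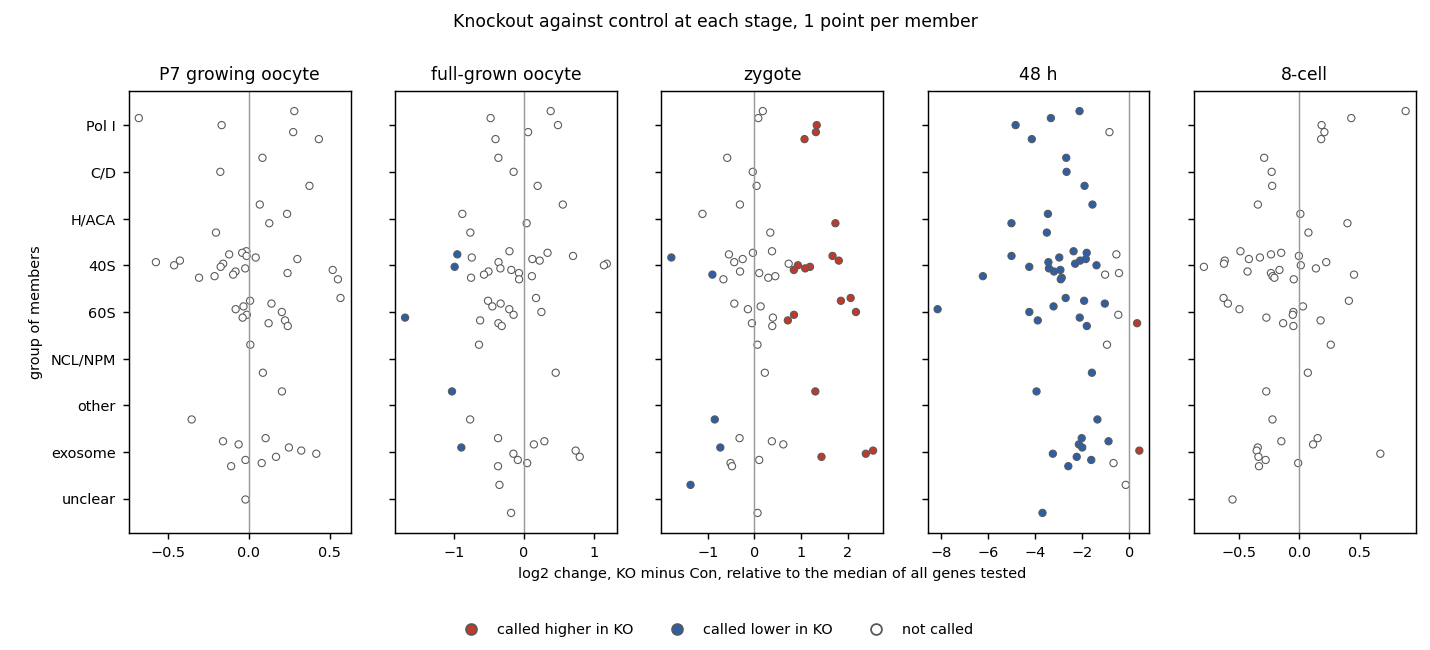
Each point is 1 tested member, placed by its log2 change in KO minus Con relative to the median of all genes, in rows by role and panels by stage, with a separate horizontal scale in each panel. Red points were called higher in KO, blue points lower and open points were not called. The panels of P7 oocytes and 8-cell embryos hold only open points, and 48 of 58 points are blue at 48h.

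RNA polymerase I consists of 2 large catalytic subunits, encoded by Polr1a and Polr1b, and smaller subunits. Polr1c and Polr1d encode the pair shared with RNA polymerase III, and Polr1e encodes a subunit of the initiation-related heterodimer. Polr1c stood at 15.2 and 20.7 FPKM in KO zygotes, against 3.57 and 10.8 in Con zygotes. At 48h it stood at 13.3 and 26.2 in KO, against 421 and 409 in Con. It was thus above both Con libraries in zygotes and far below both at 48h. The change was 1.34 in zygotes (limma adjusted p = 0.0289) and -4.83 at 48h (limma adjusted p = 2.52e-06), and the zygote call was lost without KO replicate 2 and without Con replicate 1. Polr1e showed the same order, with 5.53 and 9.14 FPKM in KO zygotes, against 2.11 and 3.71 in Con, and 5.77 and 9.16 in KO at 48h, against 106 and 109 in Con. Its change at 48h was -4.14 (limma adjusted p = 9.49e-07).

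Polr1d was the most abundant Pol I transcript in the oocyte, with 302 and 309 FPKM in KO full-grown oocytes and 300 and 371 in Con. In zygotes it stood at 163 and 285 in KO, against 85.0 and 84.8 in Con, a change of 1.32 (limma adjusted p = 0.00341). At 48h it stood at 247 and 322 in KO and 357 and 398 in Con, a change of -0.85 that was not called (limma adjusted p = 0.158). The catalytic subunits were low in full-grown oocytes and zygotes, while Polr1b stood at 12.4 and 9.88 FPKM in Con P7 oocytes. Polr1a stood at 1.96 and 2.97 FPKM in KO at 48h, against 9.41 and 10.7 in Con (change -2.12, limma adjusted p = 0.000379). Polr1b stood at 1.12 and 1.89, against 20.2 and 15.2 (change -3.33, limma adjusted p = 4.2e-06). Neither was called in zygotes.

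The box C/D particles guide 2′-O-methylation of rRNA, with fibrillarin (Fbl) as the methyltransferase and Nop56 and Nop58 as its scaffold. Nop56 stood at 47.0 and 62.7 FPKM in KO at 48h, against 258 and 262 in Con, a change of -2.67 (limma adjusted p = 1.48e-06). Nop58 stood at 43.8 and 37.6, against 124 and 106, a change of -1.91 (limma adjusted p = 0.00011). In zygotes the KO and Con libraries of both genes lay close together, with 77.0 and 79.4 against 75.8 and 83.1 FPKM for Nop56, and the 95% interval of its change ran from -0.47 to 0.39. Fbl was at or under 1.09 FPKM in all KO libraries from the full-grown oocyte to 48h. It was listed at 0 in both KO zygote libraries, against 0.686 and 0.304 in Con, and at 0 and 1.09 in KO at 48h, against 6.94 and 4.95 in Con (change -2.68, limma adjusted p = 4.28e-05). Values under 1 FPKM rest on few fragments and a 0 cannot be told from a failed estimate, so Fbl values near 0 carry little weight. The reason for the low values was not tested.

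The box H/ACA particles guide the conversion of uridine to pseudouridine, with dyskerin (Dkc1) as the enzyme and Nhp2, Nop10 and Gar1 as its partners. Nhp2 showed the largest absolute increase of the control embryo among the members, to 1207 and 1297 FPKM at 48h. The KO embryos held 35.2 and 75.4 at that time, a change of -5.01 (limma adjusted p = 3.14e-07). In zygotes it stood at 34.5 and 54.5 in KO, against 10.5 and 14.1 in Con (change 1.74, limma adjusted p = 0.00305), and in full-grown oocytes at 62.4 and 53.2 in KO and 64.8 and 63.2 in Con, a change of 0.04 that was not called. So the Con zygotes lay below all other libraries of the table, while 1 of 2 KO zygote libraries lay within the range of the oocytes. Nop10 stood at 58.4 and 92.7 FPKM in KO at 48h, against 559 and 704 in Con (change -3.50, limma adjusted p = 1.2e-05). Gar1 stood at 0.723 and 3.89, against 22.5 and 22.8 (change -3.46, limma adjusted p = 0.00028). Dkc1 had the smallest change of these genes, with 53.3 and 46.6 FPKM in KO at 48h, against 106 and 116 in Con (change -1.57, limma adjusted p = 0.00043).

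**Figure D3:**
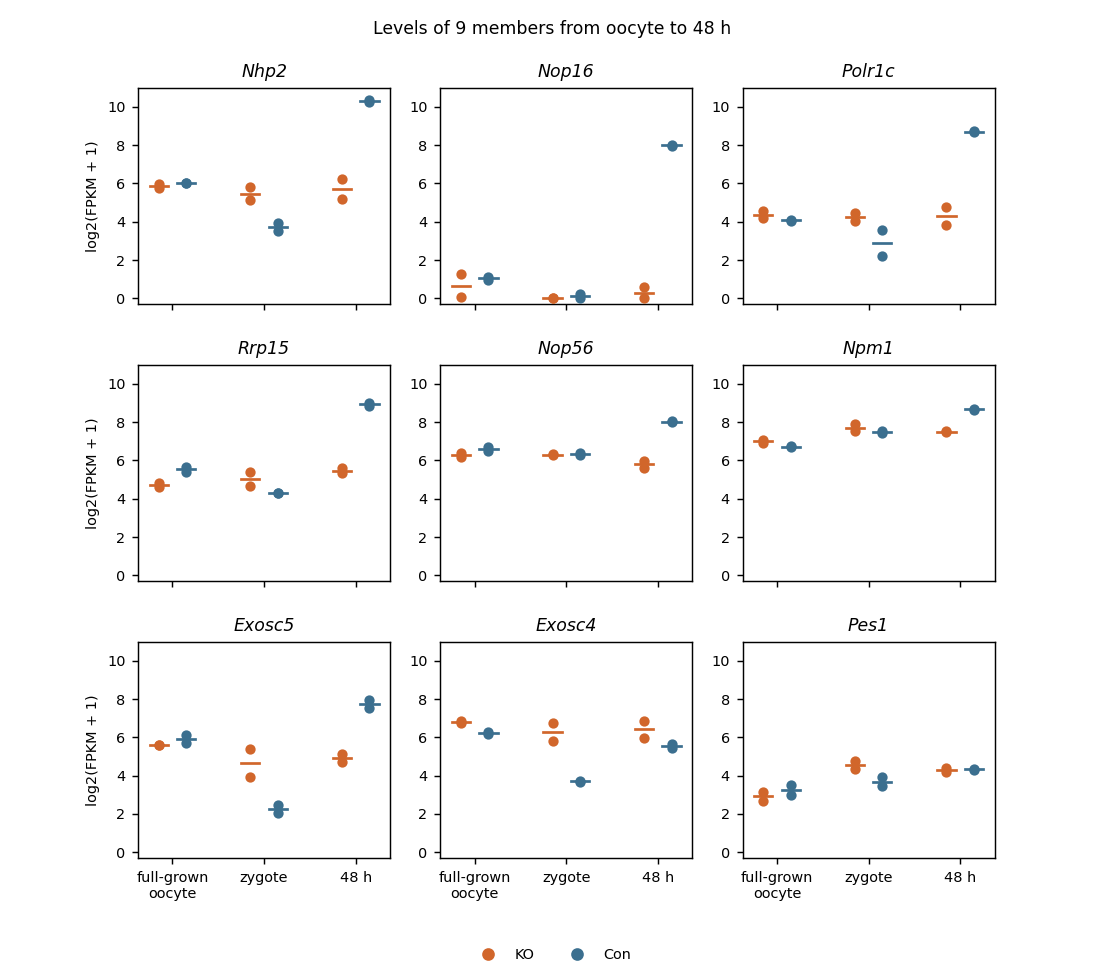
Each panel gives 1 member, with log2(FPKM + 1) on the vertical axis and the 3 stages of the shared table on the horizontal axis. Points are libraries, KO left of Con, and short lines are means of 2. Nhp2, Nop16, Polr1c, Rrp15 and Exosc5 rise in Con at 48h and stay near the zygote level in KO, while Pes1 does not separate the genotypes at 48h.

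The small-subunit processome assembles around the 5′ part of the precursor. Its members ranged from Imp3 and Imp4, partners of the U3 snoRNA and abundant at every stage, to Utp23, Nol6 and Rrp12, which were at most 3.74 FPKM in full-grown oocytes and zygotes. Utp23, a factor of the early cleavages in yeast, stood at 0.64 and 1.39 FPKM in KO at 48h, against 106 and 110 in Con, a change of -6.22 (limma adjusted p = 1.84e-08). Nol11 stood at 2.10 and 4.34, against 98.1 and 93.7 (change -5.00, limma adjusted p = 1.93e-07). Rrp9, a U3 snoRNP protein, stood at 7.52 and 11.3, against 145 and 142 (change -4.25, limma adjusted p = 5.28e-07). The KO and Con libraries of these 3 lay far apart. Imp3 stood at 115 and 137, against 458 and 512 (change -2.37, limma adjusted p = 0.00011), and Imp4 at 113 and 67.4, against 224 and 235 (change -1.81, limma adjusted p = 0.0012). Neither was called in zygotes.

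In zygotes 6 of 19 small-subunit factors were called higher in KO and 2 lower, where 18.5% of all genes were called higher and 13.1% lower. Nop9, an RNA-binding factor of 18S rRNA maturation, stood at 3.96 and 10.8 FPKM in KO, against 1.59 and 0.802 in Con (change 1.81, limma adjusted p = 0.00576). Nol11, Rrp9, Utp11l, Rrp7a and Utp14a were also called higher. Utp20, a large scaffold protein, stood at 2.65 and 3.36 in KO, against 7.60 and 5.32 in Con (change -0.90, limma adjusted p = 0.0449), and that call was lost in 3 of the 4 fits that left out a zygote library. Nol6 stood at 0.31 and 0.395, against 3.74 and 3.46 (change -1.78, limma adjusted p = 0.00107). In full-grown oocytes Rrp9 stood at 5.18 and 6.56 in KO, against 15.5 and 13.5 in Con (change -0.99, limma adjusted p = 0.0381), and Nol10 at 4.85 and 5.52, against 10.9 and 14.6 (change -0.95, limma adjusted p = 0.0466). Neither of these calls held under median-ratio or quantile scaling. Rrp9 was therefore lower in KO oocytes and higher in KO zygotes, at 7.17 and 13.5 FPKM against 3.74 and 3.70 in Con zygotes.

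The 60S factors ranged widely at 48h. Nop16, a nucleolar factor of 60S assembly, was listed at 0 and 0.493 FPKM in KO at 48h, against 250 and 259 in Con, a change of -8.14 (limma adjusted p = 1.38e-08). Both KO zygote libraries and 1 of 2 Con zygote libraries were listed at 0 and the other Con library at 0.19, values too low to be told from a failed estimate. It stood at 1.17 and 0.959 FPKM in Con full-grown oocytes and at 27 and 36.8 in Con P7 oocytes. Rrp15 stood at 47.8 and 39.3 in KO at 48h, against 460 and 515 in Con (change -3.89, limma adjusted p = 3.2e-07). Nop2, a methyltransferase of 28S rRNA, stood at 5.10 and 6.08, against 89.2 and 94.3 (change -4.25, limma adjusted p = 9.05e-07). The PeBoW complex, which processes the 32S precursor, did not move as a unit. Its member Bop1 stood at 7.81 and 9.88 FPKM in KO at 48h, against 45.7 and 47.1 in Con (change -2.71, limma adjusted p = 0.000871), and Wdr12 at 10.6 and 8.05, against 23.4 and 28.2 (change -1.81, limma adjusted p = 0.0017). Pes1 stood at 17.1 and 20.1 in KO and 18.8 and 19.5 in Con, a change of -0.47 that was not called (limma adjusted p = 0.902). Rrp1b, a nucleolar relative of Rrp1, was one of the 2 members higher in KO, at 22.8 and 18.4 against 12.3 and 11.1 (change 0.32, limma adjusted p = 0.0066), and the call was lost under median-ratio and quantile scaling and without KO replicate 1. The 95% interval of that relative change ran from -0.13 to 0.78.

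In zygotes 5 of these 11 genes were called higher in KO and none lower, where 18.5% of all genes were called higher and 13.1% lower. Like all zygote calls, these were lost when the zygote libraries were fitted alone. Nop2 stood at 6.15 and 8.20 FPKM in KO zygotes, against 0.434 and 1.2 in Con (change 2.18, limma adjusted p = 0.000686). Bop1 stood at 7.83 and 15.2, against 0.808 and 3.45 (change 2.06, limma adjusted p = 0.0066), a call lost without KO replicate 2 and without Con replicate 1. Nol12, a nucleolar RNA-binding protein of rRNA processing, stood at 21.0 and 41.6, against 7.47 and 7.31 (change 1.85, limma adjusted p = 0.0015). Pes1 and Rrp15 were the other 2. In full-grown oocytes Rrp1, the relative of Rrp1b, showed the largest fall of the members, to 1.33 and 2.83 FPKM in KO, against 9.02 and 11.3 in Con (change -1.70, limma adjusted p = 0.00908). That call was lost in 3 of the 4 fits that left out an oocyte library.

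Of the abundant nucleolar proteins 1 of 2 was called at 48h. Npm1, a histone chaperone and the main granular-component protein of the nucleolus, stood at 179 and 182 FPKM in KO at 48h, against 412 and 400 in Con (change -1.59, limma adjusted p = 0.00011). In zygotes it stood at 234 and 184 in KO and 171 and 182 in Con, and in full-grown oocytes at 131 and 121 in KO and 104 and 105 in Con, with neither difference called. Ncl, which binds the precursor as it is made, stood at 46.8 and 53.7 in KO at 48h and 75.8 and 69.1 in Con, a change of -0.95 that was not called (limma adjusted p = 0.0565). Nol7 encodes a further nucleolar protein. It stood at 13.2 and 9.72 FPKM in KO at 48h, against 125 and 156 in Con (change -3.94, limma adjusted p = 5.52e-07), and at 4.63 and 7.88 in KO zygotes, against 1.68 and 1.99 in Con (change 1.31, limma adjusted p = 0.00478). In full-grown oocytes it was lower in KO, at 6.06 and 6.01 against 14.1 and 16.8 (change -1.03, limma adjusted p = 0.0276), a call that no rescaling kept. Rrp8, a methyltransferase of 28S rRNA and of the silent rDNA complex, was lower in KO zygotes, at 10.2 and 14.6 against 22.8 and 22.5 (change -0.85, limma adjusted p = 0.032), a call lost in 3 of the 4 fits that left out a zygote library.

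The exosome core is a ring of 6 subunits (Exosc4 to Exosc9) capped by 3 RNA-binding subunits (Exosc1 to Exosc3), to which the nuclease Exosc10 attaches in the nucleus. Exosc4 and Exosc5 were low in Con zygotes and high in KO zygotes. Exosc4 stood at 54.8 and 106 FPKM in KO zygotes, against 12.4 and 11.8 in Con (change 2.54, limma adjusted p = 0.000344). Exosc5 stood at 14.1 and 40.8, against 4.43 and 3.16 (change 2.39, limma adjusted p = 0.0015). Both calls held whichever zygote library was left out. Exosc6 was also called higher, and Exosc3 was lower, at 58.5 and 91.1 in KO against 129 and 113 in Con (change -0.73, limma adjusted p = 0.028), a call lost in 3 of 4 such fits. Exosc3 was lower in KO full-grown oocytes as well, at 48.2 and 43.5 against 101 and 95.1 (change -0.90, limma adjusted p = 0.0192), a call lost under median-ratio scaling and whenever an oocyte library was left out.

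At 48h the subunits of the ring separated. Exosc5 stood at 25.2 and 34.4 FPKM in KO, against 187 and 245 in Con (change -3.25, limma adjusted p = 6.17e-05), and Exosc9 at 9.18 and 10.8, against 47.1 and 48.8 (change -2.59, limma adjusted p = 1.2e-05). Exosc4 was the only exosome subunit called higher in KO, at 62.6 and 113 against 43.2 and 49.5 (change 0.42, limma adjusted p = 0.0315). The 95% interval of that relative change ran from -0.28 to 1.13. The call was lost under median-ratio scaling and in 3 of the 4 fits that left out a 48h library. Exosc8 stood at 69.6 and 58.3 in KO and 69.7 and 82.1 in Con and was not called. Exosc10 moved little, at 34 and 36.2 against 45 and 52.3 (change -0.89, limma adjusted p = 0.0397), and that call was lost in 3 of the 4 such fits. Exons of 16 members overlap those of another protein-coding gene by 50 nt or more in GENCODE vM21, among them Exosc6 with Aars, Exosc4 with Oplah, Exosc5 with Tmem91, Nop9 with Cideb and Nol7 with Ranbp9. The overlap of Exosc6, called higher in KO zygotes, is 1326 nt, equal to its median annotated transcript. With no strand stated for the libraries, reads of these genes may be shared.

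From full-grown oocyte to zygote, more members fell than rose in Con, and more rose than fell in KO. In Con 23 of 58 were called lower in zygotes than in full-grown oocytes and 7 higher, where 24% of all genes were called lower, 18.5% higher and 42.5% either way. In KO 11 were called higher and 1 lower (Exosc1), where 12.6% of all genes were called higher, 5.1% lower and 17.7% either way. The median member changed by -0.36 in Con, against -0.06 for all genes, and by 0.06 in KO, against 0.09. Exosc5 fell most in Con, to 4.43 and 3.16 FPKM in zygotes, against 52.0 and 68.7 in full-grown oocytes (change -3.62, limma adjusted p = 7.3e-05). Exosc4 fell to 12.4 and 11.8 in zygotes, against 72.1 and 78.1 (change -2.48, limma adjusted p = 0.00019), and Nol12 to 7.47 and 7.31, against 47.5 and 46.4 (change -2.46, limma adjusted p = 0.00016). The members that rose in Con were Dkc1 (change 1.22), Nol10, Utp20, Nol8, Utp6, Nop58 and Npm1 (change 0.80).

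The difference between genotypes over that step was tested directly. It was called for 12 of 58 members, all with the larger value in KO, where 8.29% of all genes were called in that direction, 1.1% in the other and 9.39% either way. They were Exosc5 (2.55), Nol12 (2.37), Nol7 (2.34), Rrp9 (2.19), Rrp1 (2.11), Nop2 (1.93), Exosc4 (1.81), Nhp2 (1.70), Polr1e (1.49), Utp11l (1.43), Rrp15 (1.35) and Polr1d (1.27), each the KO minus Con difference of the log2 change relative to all genes. Calls for Nol12, Rrp9 and Nol7 held under every alternative. The count ran from 3 to 20 as single libraries were left out, highest without KO zygote replicate 1 and lowest without Con oocyte replicate 2. The KO calls from oocyte to zygote were as unstable, with 0 left without KO oocyte replicate 1 and 19 without KO zygote replicate 2.

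From zygote to 48h, 48 of 58 members rose in Con and 3 fell (Nol4, Rrp1b and Nol10), where 33.4% of all genes were called higher, 42.7% lower and 76.1% either way. The median member changed by 2.13, against -0.34 for all genes. In KO limma called no member, with 25 of 12199 genes (0.205%) called in all, 0.139% higher and 0.0656% lower. At an unadjusted p under 0.05 there were 6 members in KO, 3 higher and 3 lower, where 10.2% of all genes passed. Nop16 rose most in Con (change 8.21, limma adjusted p = 1.1e-08), followed by Utp23 (6.98, limma adjusted p = 7.5e-09), Nhp2 (6.91, limma adjusted p = 1.9e-08), Polr1c (6.16, limma adjusted p = 2.3e-07), Nol11 (6.05) and Nop2 (6.04). In KO the change of Nhp2 was 0.23 with a 95% interval from -0.50 to 0.95, that of Polr1c 0.06 with an interval from -0.85 to 0.96, and that of Rrp15 0.44 with an interval from -0.11 to 0.99. The upper bounds of these intervals lie far under the changes in Con.

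**Figure D4:**
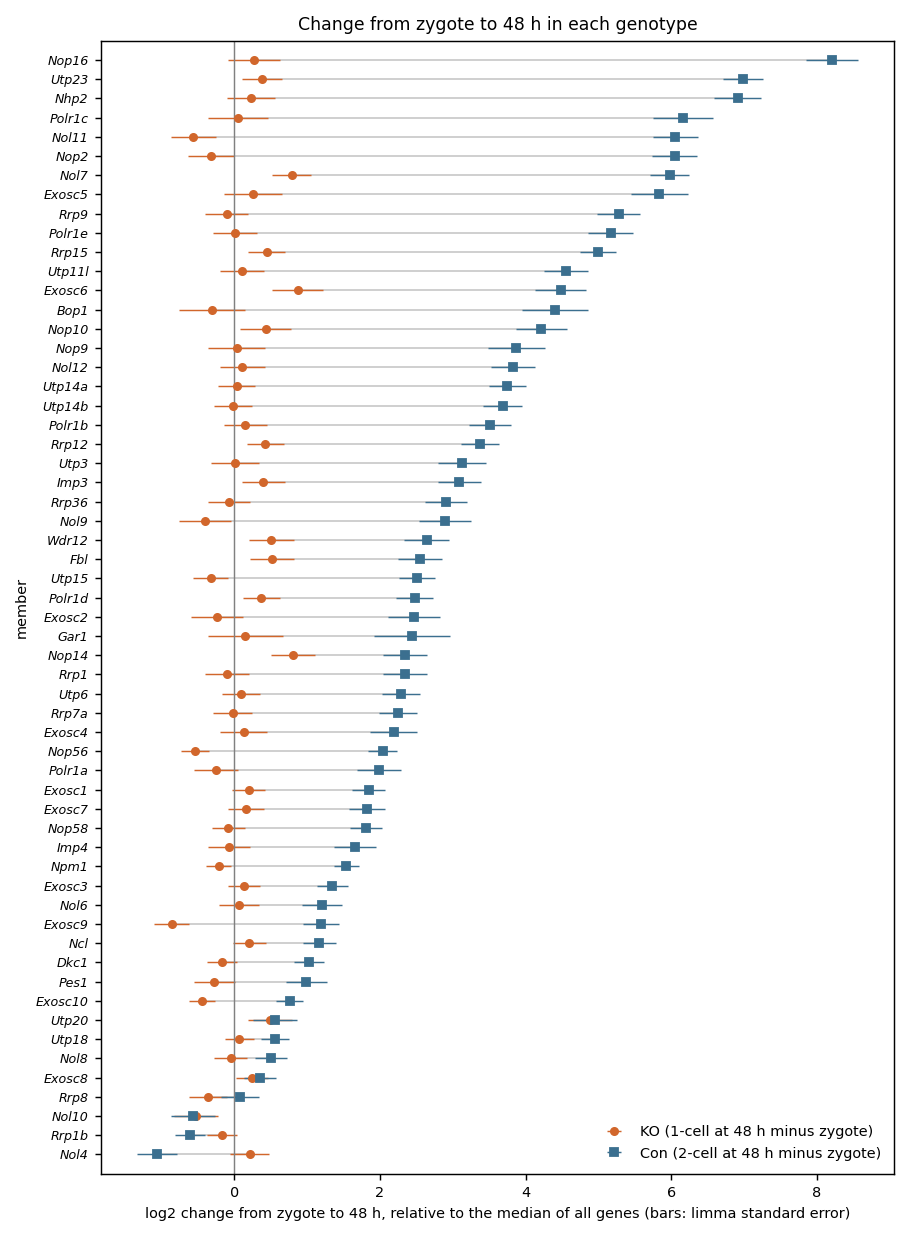
Each row is 1 of the 58 tested members, with the log2 change from zygote to 48h relative to the median of all genes in KO (circles) and Con (squares), and bars of 1 limma standard error. KO circles lie between -0.86 and 0.87, while Con squares run from -1.06 for Nol4 to 8.21 for Nop16.

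The difference of the zygote-to-48h step between genotypes was called for 49 of 58 members, 47 lower and 2 higher in KO, where 29.5% of all genes were called lower, 36.7% higher and 66.2% either way. The 2 higher were Rrp1b and Nol4, which fell in Con. These steps and the comparisons of KO with Con at each stage share libraries, so they are not separate lines of evidence. Called-higher members of the Con step had a median annotated transcript of 898 nt (48 genes). It was 1088 nt for all genes called higher and 1519 nt for all genes called lower, so annotated length moved with the direction of calls over all genes. The length of a gene here is the median over all its annotated transcripts, which need not be that of the mRNA present. The part of length in the result was not tested.

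Since the members rose together in the Con embryo, their promoters were read from RefSeq (GRCm38.p6). The 250 bases upstream of the start are shown for 3 members with large rises, 5′ to 3′ on the strand of the gene, with GGGCGG and its reverse complement CCGCCC, the GC box, in capitals.
Nop16, chr13:54590075-54590324, minus strand: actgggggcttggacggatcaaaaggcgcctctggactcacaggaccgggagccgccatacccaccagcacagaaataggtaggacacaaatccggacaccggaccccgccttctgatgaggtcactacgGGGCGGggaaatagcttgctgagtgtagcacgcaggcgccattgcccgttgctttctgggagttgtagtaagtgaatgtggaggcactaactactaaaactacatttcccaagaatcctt
Nhp2, chr11:51619523-51619772, plus strand: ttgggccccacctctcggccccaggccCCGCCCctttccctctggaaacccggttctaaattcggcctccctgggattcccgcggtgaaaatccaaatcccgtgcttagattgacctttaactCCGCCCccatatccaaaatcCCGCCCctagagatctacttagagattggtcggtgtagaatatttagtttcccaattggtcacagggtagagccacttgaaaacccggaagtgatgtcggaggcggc
Polr1c, chr17:46248046-46248295, minus strand: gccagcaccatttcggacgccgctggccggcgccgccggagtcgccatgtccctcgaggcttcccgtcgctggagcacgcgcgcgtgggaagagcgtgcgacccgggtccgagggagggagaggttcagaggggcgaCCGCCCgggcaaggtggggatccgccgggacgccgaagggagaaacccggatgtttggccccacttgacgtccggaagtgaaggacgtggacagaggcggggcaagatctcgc
Nhp2 holds 3 matches and the other two hold 1 each. Of the 59 members, 48 matched the promoter table, with 55 promoters of 300 bases. Only the 250 bases before each start were searched. GGGCGG on either strand was in 60% of member promoters, against 54.6% of the promoters of genes tested in the table of 12 libraries and 32.7% of all 32851 promoters. The palindrome CACGTG, the E-box that MYC binds, was in 12.7%, against 8.31% and 6.02%, and the palindrome TCGCGA in 5.45%, against 4.01% and 2.08%. Both strands were searched, and no motif contains another. A match is a run of letters and says nothing of a factor being bound.

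In P7 growing oocytes limma called no member, with 9 of 10794 genes (0.0834%) called in all, 0.0741% higher and 0.00926% lower. At an unadjusted p under 0.05 there were 4 members, 3 higher and 1 lower, where 8.04% of all genes passed. Rrp7a, a 40S factor, had the smallest adjusted p, with 42.2 and 49.3 FPKM in KO and 56.3 and 75.4 in Con, a change of -0.46 with a 95% interval from -0.91 to -0.02 before adjustment (limma adjusted p = 0.563). Bop1 stood at 48.2 and 36.8 in KO and 30.5 and 27.5 in Con, a change of 0.57 (limma adjusted p = 0.568). Npm1 stood at 387 and 373 in KO and 344 and 395 in Con, and its interval ran from -0.20 to 0.38. Full-grown and P7 oocytes were normalised separately and are only set side by side, over the 57 members and 9715 genes that passed the filter in both tables. In KO both full-grown libraries lay below both P7 libraries for 45 members and above for 7, where 60.6% of all genes lay below and 24.1% above. In Con the counts were 41 and 11, where 56.3% of all genes lay below and 28% above. Among the members lower in full-grown oocytes was Rrp1, at 1.33 and 2.83 FPKM in KO full-grown oocytes and 75.9 and 69.7 in KO P7 oocytes, and at 9.02 and 11.3 in Con full-grown oocytes and 78.7 and 75.3 in Con P7 oocytes. Polr1d went the other way, with 300 and 371 in Con full-grown oocytes and 121 and 88.0 in Con P7 oocytes. No test was made across these tables.

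In spindle-transfer 8-cell embryos limma called no member and none of 9398 genes (0% called). At an unadjusted p under 0.05 there were 7 of 57 members, 2 higher and 5 lower, where 13.2% of all genes passed. The median member changed by -0.23, against -0.07 for all genes. Rrp9 stood at 67.3 and 55.0 FPKM in KO and 117 and 107 in Con, a change of -0.79 with a 95% interval from -1.28 to -0.31 before adjustment (limma adjusted p = 0.229). Exosc5 stood at 139 and 161 in KO and 91.4 and 106 in Con, a change of 0.67 (limma adjusted p = 0.31), and Polr1a at 12.7 and 14.6 in KO and 8.06 and 6.71 in Con, a change of 0.88 (limma adjusted p = 0.336). For the genes that differed most at 48h the 8-cell libraries lay nearer to each other. Nhp2 stood at 816 and 746 in KO and 602 and 645 in Con, and Nop16 at 57.3 and 35.6 in KO and 60.2 and 76.4 in Con. Npm1 was the most abundant member at this stage, at 1527 and 1371 in KO and 1565 and 1349 in Con. The 95% intervals were -0.33 to 0.47 for Npm1 and 0.02 to 0.78 for Nhp2, so a difference of the size seen at 48h lies outside them.

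The Dnmt3l pair has no replicates and no test. Dnmt3l encodes the cofactor of de novo DNA methylation in oocytes. Of 37 members that reached 5 FPKM in either library, none was 2-fold higher and 1 was 2-fold lower. Among 6015 genes 1.4% passed that fold, 0.732% higher and 0.665% lower. It was Rrp15, at 12.3 FPKM in Dnmt3l_KO and 27.1 in Dnmt3l_Con, a log2 ratio of -1.08. Nhp2 followed at 27.8 and 48.0, and Dkc1 differed most upward at 43.6 and 26.4. The median log2 ratio was -0.041 over the 37 and -0.0037 over the 6015.

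The rest of the pathway was followed with 103 further genes, namely 15 Pol I factors, 34 further small-subunit factors, 41 further large-subunit factors and 13 exosome nucleases and cofactors. At 48h 75 were called lower in KO than in Con and 9 higher, where 30.6% of all genes were called lower and 43.2% higher. The Pol I factors moved like the Pol I subunits, with 14 of 15 lower. Rrn3, the initiation factor that recruits Pol I, stood at 20.6 ± 2.25 FPKM in KO and 229 ± 16.6 in Con (SD, n = 2 libraries each, change -3.84, limma adjusted p = 3.2e-08). Polr2f, a subunit common to the nuclear polymerases, stood at 99.9 ± 20.0 in KO and 1649 ± 62.1 in Con (change -4.48, limma adjusted p = 3.6e-08). Of the 13 exosome nucleases and cofactors 5 were lower and 6 higher, shares near those of all genes. C1d, the nuclear exosome cofactor, stood at 4.26 ± 0.117 FPKM in KO and 130 ± 2.52 in Con (change -5.07, limma adjusted p = 1.4e-07), while Mphosph6, which also binds the nuclear exosome, stood at 1927 ± 229 in KO and 308 ± 2.59 in Con (change 2.20, limma adjusted p = 1.1e-06). Zcchc8, of the exosome-targeting NEXT complex, was higher too, at 50.8 ± 7.19 against 8.29 ± 2.45 (change 2.07, limma adjusted p = 2.4e-06). In the small-subunit list the kinase Riok1 went against the others, at 163 ± 18.9 in KO and 24.5 ± 1.86 in Con (change 2.25, limma adjusted p = 3.4e-07).

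In zygotes 32 of the 103 were called higher in KO and 7 lower, where 18.5% of all genes were called higher and 13.1% lower. Ddx47, a helicase of the small-subunit processome, stood at 66.5 ± 3.08 FPKM in KO and 6.67 ± 1.36 in Con (change 3.13, limma adjusted p = 2.7e-05). Emg1, a methyltransferase of 18S rRNA, stood at 254 ± 139 in KO and 39.1 ± 4.11 in Con (change 2.54, limma adjusted p = 0.00059), and Ubtf, the Pol I activator, at 6.17 ± 2.11 and 0.797 ± 0.365 (change 1.96, limma adjusted p = 0.0023). In full-grown oocytes 9 were lower and 1 higher, where 4.89% of all genes were called lower and 2.02% higher. Ftsj3, a 60S methyltransferase, stood at 9.98 ± 1.62 in KO and 27.1 ± 4.03 in Con (change -1.17, limma adjusted p = 0.0073), and Wdr61, of the cytoplasmic Ski complex, was the 1 higher, at 59.9 ± 10.2 and 31.1 ± 3.48 (change 1.11, limma adjusted p = 0.0445). In Con 84 of the 103 rose from zygote to 48h and 8 fell, where 33.4% of all genes rose and 42.7% fell, and in KO none was called. No gene of this list was called in P7 oocytes or in 8-cell embryos, with 102 tested in each.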

How the data were processed

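The authors deposited FPKM values per gene, in one table per experiment. TopHat2 2.0.11, Cufflinks 2.0.2 and the mouse build mm9 are named in the submitters' processing notes, without their roles, and the counting of strands is not given in the sources used here. The members, gene lists and tests were chosen with earlier results of these data known.

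Genes with at least 1 FPKM in 2 libraries of a table were tested on log2(FPKM + 1) with limma 3.58.1 in R 4.3.3 (group means, trended variance, Benjamini-Hochberg adjustment over all genes tested). The 12 libraries of full-grown oocytes, zygotes and 48h embryos were fitted together and share one estimate of spread, while the P7 and 8-cell tables were fitted alone. No test crosses tables. The fit was tested on simulated data. P-values are those of the change itself, while printed changes and intervals of single genes are relative to the median of all genes. Median member changes are not made relative. Depth per library was approximated from the smallest FPKM step of single-transcript genes, taken as 1 fragment. Replicate numbers were not treated as pairs.

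Genes named were a set of core members, up to 10 called members each way per comparison with a mean of at least 5 FPKM, up to 3 called genes of each further list per comparison of KO with Con, and the label checks and markers. Nol6, Nol3 and Nol4, and the genes named for the P7 and 8-cell stages outside that set, were chosen after their values were seen. Exosc6, Exosc8, Exosc9 and Rrp12 also lie outside these rules, as do some members named only in full lists of calls. Alternatives were other pseudocounts, filters, scalings and variance models, the compared groups alone, a replicate block and leaving out each library.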

Additional observations from a re-analysis of the deposited data

Results flagged for a closer look

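Both steps of the KO and Con courses differed between the genotypes by a direct test in limma. Between full-grown oocyte and zygote, the signed log2 change was called higher in KO than in Con for 12 members and lower for 0, where 8.29% and 1.1% of all genes were called. Of these 12 calls 3 held under every alternative. Among the 12, all but Rrp1 were called lower in Con zygotes than in Con oocytes and were not called in KO. Rrp1 was not called in Con and was called higher in KO zygotes than in KO oocytes. The KO minus Con differences, in log2 units relative to all genes, were 2.55 for Exosc5, 2.37 for Nol12, 2.34 for Nol7, 2.19 for Rrp9, 2.11 for Rrp1, 1.93 for Nop2, 1.81 for Exosc4, 1.70 for Nhp2, 1.49 for Polr1e and 1.43 for Utp11l.

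Between zygote and 48h, the signed log2 change was called lower in KO than in Con for 47 members and higher for 2, where 29.5% and 36.7% of all genes were called. Of these 49 calls 42 held under every alternative. The 2 called higher, Rrp1b and Nol4, fell in Con and were not called in KO. The differences were -7.94 for Nop16, -6.69 for Nhp2, -6.62 for Nol11, -6.61 for Utp23, -6.37 for Nop2, -6.11 for Polr1c, -5.58 for Exosc5, -5.39 for Rrp9, -5.19 for Nol7 and -5.16 for Polr1e, and 0.43 for Rrp1b. The KO embryos at 48h are labelled 1-cell and the Con embryos 2-cell, so genotype and stage cannot be told apart in this step.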

How the results depend on the processing

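Comparisons that involve the Con embryos at 48h were the most stable, and those of full-grown oocytes the least. The 5 calls in full-grown oocytes became 3 with a pseudocount of 0.1, 3 with no filter, 3 under median-ratio and 3 under quantile scaling, 9 with a filter of 5 FPKM and 9 with the compared groups alone. The 24 calls in zygotes became 0 with the compared groups alone. The 12 calls of the oocyte-to-zygote difference became 5 with no filter and 7 under median-ratio scaling. Median member changes moved under median-ratio scaling to -2.42 (KO against Con at 48h), 2.65 (Con, 48h against zygote) and -2.56 (difference of that step). They moved under quantile scaling to 0.0448 (zygotes), -0.115 (Con, zygote against oocyte) and 0.169 (difference of that step). A pseudocount of 0.1 gave 2.26 for Con, 48h against zygote. At 1.5-fold, 4 members passed in the Dnmt3l pair.

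As single libraries were left out, the number of calls was 0 to 1 for full-grown oocytes and 14 to 22 for zygotes, with 0 to 19 for KO zygotes against oocytes and 3 to 20 for the oocyte-to-zygote difference. Median changes ran from 0.0820 to 0.369 in zygotes, from -0.247 to -0.132 in 8-cell embryos, from -0.506 to -0.329 for Con zygotes against oocytes and from 2.00 to 2.16 for Con, 48h against zygote. Where 1 library remained in a group it was assumed to vary like the others. No named member reversed its direction under these alternatives in a comparison where it was called. Named members without a call were not checked for this. The cause of these shifts was not tested.

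With the replicate number as a block, the calls numbered 7 for full-grown oocytes and 24 for zygotes. They numbered 51 for 48h embryos and 14 for the oocyte-to-zygote difference. Deviations of same-numbered libraries correlated at 0.00244 to 0.186, so the numbers were not taken as pairing. Low depth in zygotes limits values under 1 FPKM.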
